A study of Homo sapiens with 8 samples.

Results

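The genes described here are the small nucleolar RNAs (snoRNAs) of the Prader-Willi locus on human chromosome 15 and 5 longer genes beside them. Members were every gene whose symbol begins with SNORD115- or SNORD116-, plus SNRPN, SNURF, IPW, NDN and MAGEL2, taken by name and not by level. They made 73 of 25558 genes: 26 SNORD116 copies, 42 SNORD115 copies and the 5 longer genes. The study used H1 cells, an established human embryonic stem cell line, grown without feeder cells in puromycin. All 8 libraries came from H1 cells with a doxycycline-inducible short hairpin RNA, either shEXOSC3, against a core subunit of the RNA exosome, or the control hairpin shNS. Each hairpin was sampled without and with doxycycline on day 5 and on day 7, with 1 library per group, so no difference below has a replicate check or a p-value. The RNA exosome is a nuclease complex that degrades and trims RNAs, including the ends of many snoRNA precursors. The labels do not say whether a hairpin line was 1 clone.

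The Prader-Willi locus is imprinted: SNRPN, SNURF, IPW, NDN, MAGEL2 and both snoRNA clusters are expressed from the paternal chromosome, and loss of the paternal copy of the region causes Prader-Willi syndrome. SNRPN and SNURF start a very long noncoding host transcript, and the SNORD116 and SNORD115 copies are released from its introns after splicing. C/D box snoRNAs are bound by fibrillarin and its partners and usually guide methylation of other RNAs, but SNORD116 has no settled target. SNORD115 is best known from brain and has been linked to the serotonin 2C receptor RNA.

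The copies carrying the results are shown first, as annotated in GENCODE release 29 (GRCh38), 5′ to 3′, because near-identical copies differed widely in level. SNORD116-14 led the family on day 5, SNORD116-13 led it on day 7, and SNORD116-18 is a close relative of SNORD116-14. Capitals mark the bases that differ from SNORD116-14, which is therefore all in lower case.
SNORD116-14: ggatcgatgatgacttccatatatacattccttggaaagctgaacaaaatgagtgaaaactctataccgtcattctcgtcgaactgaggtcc
SNORD116-13: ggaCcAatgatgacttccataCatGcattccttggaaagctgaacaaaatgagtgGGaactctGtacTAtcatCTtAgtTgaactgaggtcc
SNORD116-18: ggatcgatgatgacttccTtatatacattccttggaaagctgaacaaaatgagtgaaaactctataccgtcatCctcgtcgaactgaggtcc

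SNORD116-13 differed from SNORD116-14 at 13 of 92 positions and SNORD116-18 at 2. The next 3 sequences show 2 abundant copies from the far end of the cluster and 1 copy listed at 0 in every library. Capitals here mark the C box (TGATGA) and the D box (the last CTGA), the short motifs that bind the snoRNP proteins.
SNORD116-26: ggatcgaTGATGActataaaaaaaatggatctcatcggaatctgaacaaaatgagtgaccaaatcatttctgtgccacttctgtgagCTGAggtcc
SNORD116-27: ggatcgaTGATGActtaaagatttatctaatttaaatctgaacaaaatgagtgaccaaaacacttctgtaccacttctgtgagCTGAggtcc
SNORD116-3: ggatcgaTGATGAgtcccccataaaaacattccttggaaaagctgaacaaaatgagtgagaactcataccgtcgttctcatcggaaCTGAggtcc

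Of 30 annotated SNORD116 sequences, 28 held TGATGA on the strand shown and 30 held CTGA close to the 3′ end, with lengths from 83 to 102 bases. Only 27 of the 30 were distinct. In the deposited tables (hg19) the listed copies lay on chromosome 15 between 25296623 and 25353499, and SNORD116-13 lay at 25324204 to 25324297.

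Values were FPKM, fragments scaled to transcript length and library size, so levels of different genes are compared per length. Each line on each day was quantified in its own table, so ratios were formed within a table and levels on different days are set side by side with that limit. All 148 SNORD116 values above 0 were whole multiples, within 0.02, of a fixed step for each length and library. The step was chosen as the unit that made the values whole within 0.02, so this count is not a separate check. Taking 1 step as 1 fragment gave the fragments behind each value: at 94 bases 1 fragment was worth 11.05 to 28.0 FPKM. Intervals below are 95% exact intervals and cover counting error only, not the spread between cultures or amplification.

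The target RNA EXOSC3 with doxycycline was at 45.0% of untreated on day 5 and 48.9% on day 7 in shEXOSC3, against 102% and 90.6% in shNS. Of 8 pluripotency markers 7 were in the tables, and these 7 reached 1 FPKM with a summed level of 1504 to 2403 FPKM. Of 10 neural markers 4 reached 1 FPKM, among them NES (64.7 to 105 FPKM) and TUBB3 (21.8 to 102). SOX1 and NEUROD1 were under 0.1 in every library, and the neural sum ran from 97.2 to 209 FPKM. Of 8 fibroblast markers 5 reached 1 FPKM, with a sum of 98.6 to 226 and THY1 at 74.1 to 197. Of 6 mesoderm markers KDR alone reached 1 FPKM, at 27.2 to 66.4. Definitive endoderm markers summed to 0.873 to 2.08 FPKM and trophectoderm markers to 7.70 to 10.3. The 3 most abundant transcripts took 23.8 to 27.6% of each day 5 library and 6.21 to 7.16% of each day 7 library; the part of this in the day differences was not tested.

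SNORD116 was expressed and SNORD115 was nearly undetected in these stem cells. In bulk RNA, fewer expressing cells and less RNA per cell cannot be told apart. Of the 26 SNORD116 copies, 23 had fragments in some library and 10 in all 8. Of the 42 SNORD115 copies, 41 were listed at 0 in all 8 libraries. The exception was SNORD115-25, at 43.6 FPKM in the untreated shNS library of day 7 and at 0 in the other 7. One fragment over 85 bases was worth 38.9 FPKM in that library, so this value is about the size of a single fragment. A count of 0 allows up to 3 fragments per library, and low SNORD115 levels were not detectable at this depth. SNORD115 copies lay between 25415870 and 25515005 on chromosome 15, downstream of SNORD116.

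The 3 SNORD116 copies listed at 0 throughout, SNORD116-3, SNORD116-5 and SNORD116-19, were the 3 listed copies with an identical twin elsewhere in the cluster. SNORD116-3 shares its sequence with SNORD116-9, SNORD116-5 with SNORD116-7 and SNORD116-19 with SNORD116-17. All 23 listed copies with no identical twin had fragments, with mean levels from 12.8 to 7567 FPKM and a median of 206. The labels do not say how reads matching several copies were counted, and the part of this was not tested. The 8 copies with 1 or 2 differences from their nearest relative ranged from 12.8 to 1383 FPKM in mean level. In SNORD115, the 4 listed copies with an identical twin were at 0, but so were 37 of the 38 without one.

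The SNORD116 family summed to 3107 FPKM in the untreated shEXOSC3 library of day 5 and 2843 with doxycycline. In shNS on day 5 it was 6099 without and 4967 with doxycycline. On day 7 the sum was 25147 and 19034 FPKM in shEXOSC3, with 28280 and 38616 in shNS. Every day 7 library was above every day 5 library. The sums rested on 124 to 456 fragments on day 5 and 896 to 1856 on day 7. Of the 23 SNORD116 copies with a mean of at least 1 FPKM, 14 were higher in all 4 day 7 libraries than in any day 5 library and 1 was lower. Over all 13116 genes tested, 27.2% were higher on day 7 without overlap and 37.1% were higher on day 5. SNORD genes other than the SNORD113 to SNORD116 copies had the same lean, with 73 of 132 higher on day 7 and 4 higher on day 5. Summed, those genes reached 13128 to 18439 FPKM in day 5 libraries, against 98539 to 137712 in day 7 libraries. They include SNORD107 of this locus, at 0 in all 4 day 5 libraries and at 5005 to 9570 FPKM on day 7. The day and the set of tables cannot be told apart from any change in preparation between them.

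**Figure D1:**
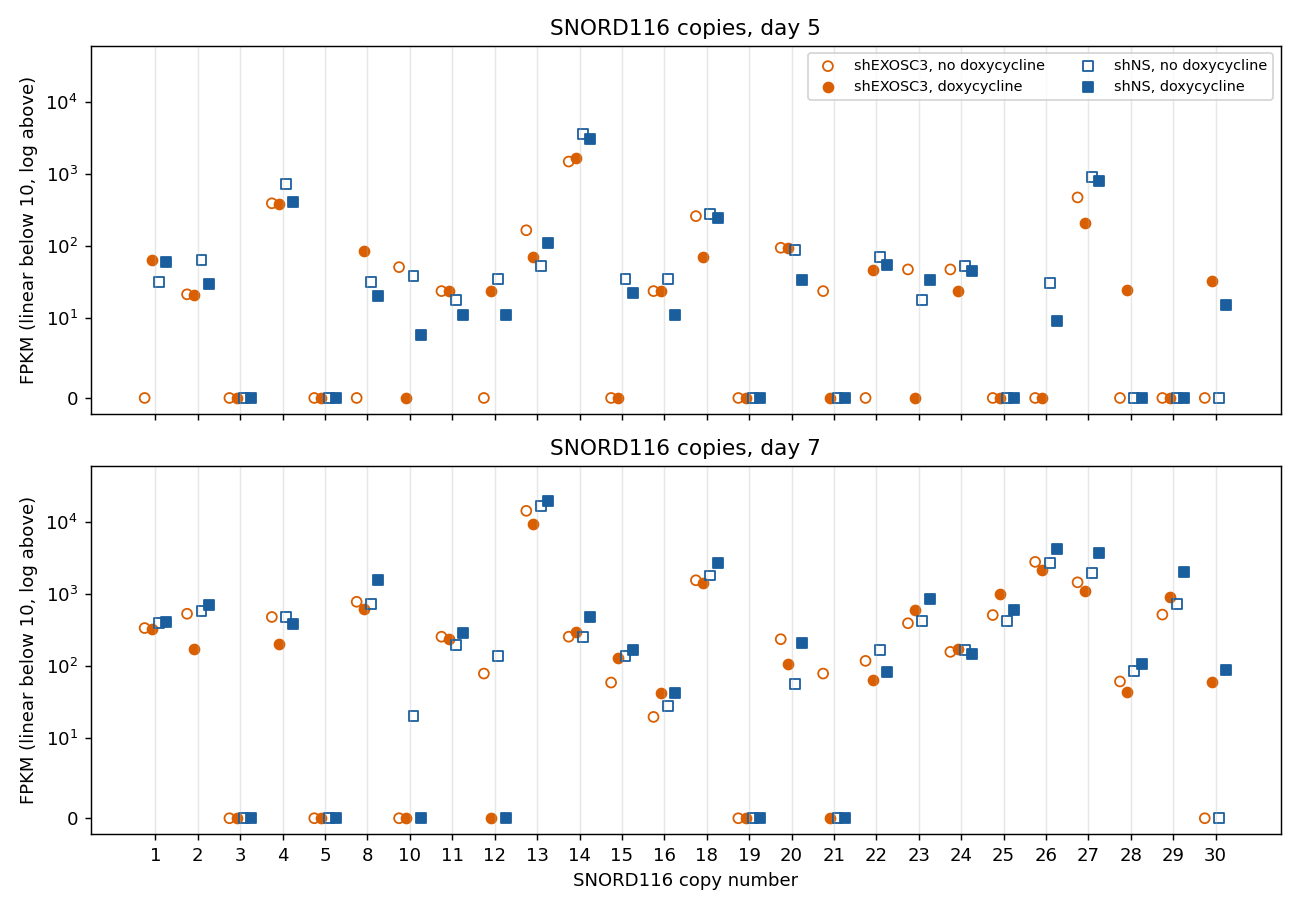
FPKM (linear below 10, logarithmic above) of the 26 listed SNORD116 copies in the 4 libraries of day 5 (top) and day 7 (bottom); circles are shEXOSC3, squares shNS, open without and filled with doxycycline. SNORD116-14 is the highest copy in all 4 day 5 libraries and SNORD116-13 in all 4 day 7 libraries, and SNORD116-3, SNORD116-5 and SNORD116-19 are at 0 throughout.

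The leading copy changed between the days. SNORD116-13 was at 165 and 70.4 FPKM in shEXOSC3 on day 5, without and with doxycycline, and at 52.7 and 110 in shNS. On day 7 it was at 14403 and 9312 FPKM in shEXOSC3, with 16745 and 19678 in shNS. These rested on 3 to 10 fragments per day 5 library and 434 to 937 per day 7 library. The lowest day 7 value was far above the highest day 5 value, and the copy went from 0.864 to 5.32% of the family sum on day 5 to 48.9 to 59.2% on day 7.

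SNORD116-14 went the other way. On day 5 it was at 1487 and 1642 FPKM in shEXOSC3, without and with doxycycline, and at 3602 and 3038 in shNS. On day 7 it was at 257 and 300 FPKM in shEXOSC3, with 252 and 483 in shNS. Its share of the family sum was 47.9 to 61.2% on day 5 and 0.891 to 1.58% on day 7. SNORD116-14 was the single SNORD116 copy that was higher on day 5 without overlap. The fragments were 63 to 275 per library on day 5 and 9 to 23 on day 7. Both copies have the same length, are neighbours in the cluster and are shown above.

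**Figure D2:**
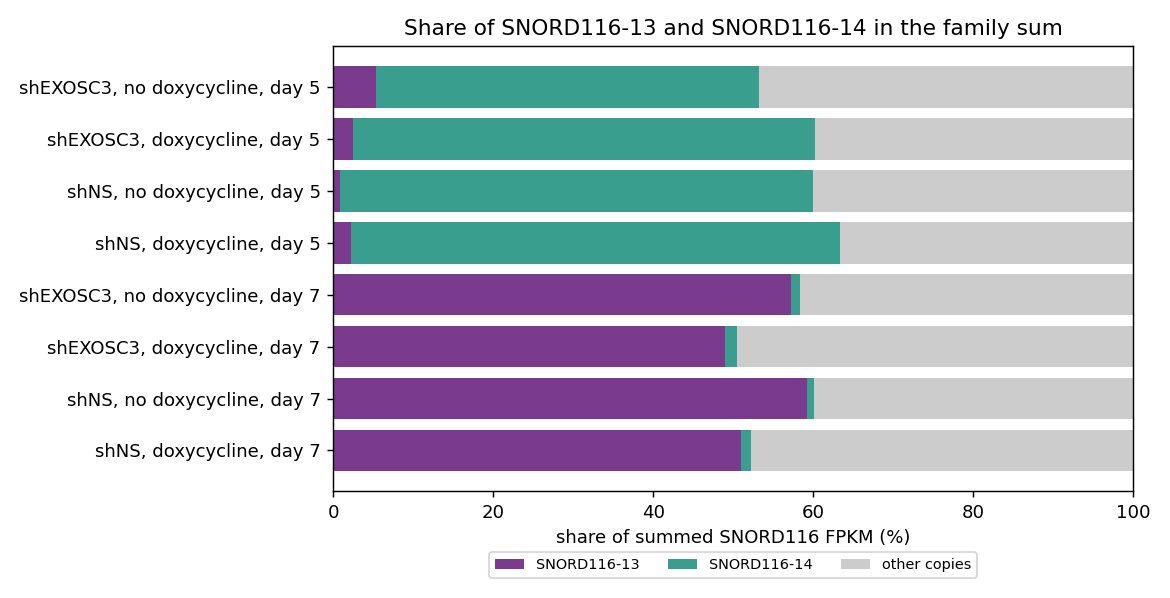
Share of the summed SNORD116 FPKM (in %, bars add to 100) taken by SNORD116-13, SNORD116-14 and all other copies in each of the 8 libraries. SNORD116-14 takes 47.9 to 61.2% in the day 5 libraries and SNORD116-13 takes 48.9 to 59.2% in the day 7 libraries, with either hairpin and with or without doxycycline.

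Other abundant copies split by day in the same direction as SNORD116-13. SNORD116-26 was at 0 in both shEXOSC3 libraries of day 5 and at 30.7 and 9.64 FPKM in shNS, without and with doxycycline. On day 7 SNORD116-26 was at 2814 and 2153 FPKM in shEXOSC3, with 2687 and 4233 in shNS. SNORD116-18, which differs from SNORD116-14 by 2 bases, was at 260 and 70.4 FPKM in shEXOSC3, with 281 and 243 in shNS on day 5. On day 7 it was at 1563 and 1438 FPKM in shEXOSC3, with 1820 and 2688 in shNS. These close relatives were therefore highest on opposite days. SNORD116-29 was at 0 in all 4 day 5 libraries and, on day 7, at 522 and 923 FPKM in shEXOSC3, with 738 and 2069 in shNS. SNORD116-25 likewise had 0 fragments on day 5, and 117 in the day 7 libraries together. SNORD116-8 was at 0 and 84.6 FPKM in shEXOSC3 on day 5, with 31.7 and 19.9 in shNS, on 8 fragments in all. Its day 7 levels were 785 and 620 FPKM in shEXOSC3, with 733 and 1592 in shNS, again all above day 5.

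Between the days, SNORD116-4 and SNORD116-27 were the steadier abundant copies. This does not extend to doxycycline, where the ratio of SNORD116-4 fell to 0.426 in shEXOSC3 on day 7. SNORD116-4 was at 391 and 389 FPKM in shEXOSC3, with 721 and 405 in shNS on day 5. On day 7 it was at 483 and 206 FPKM in shEXOSC3, with 489 and 385 in shNS, and the days overlapped. SNORD116-27 was at 472 and 211 FPKM in shEXOSC3, with 896 and 807 in shNS on day 5, and at 1464 and 1116, then 1988 and 3759, on day 7. SNORD116-27 was higher on day 7 in every library, but by less than SNORD116-13 or SNORD116-26.

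By position, the 6 listed copies from SNORD116-1 to SNORD116-9 took 10.4 to 19.6% of the family sum on day 5 and 6.98 to 8.52% on day 7. The 14 from SNORD116-10 to SNORD116-24, which hold both leading copies, took 70.9 to 72.9% and then 63.8 to 71.3%. The 6 from SNORD116-25 to SNORD116-30 took 9.42 to 16.7% on day 5 and 20.9 to 28.1% on day 7. Shares by position therefore moved much less than the exchange between SNORD116-13 and SNORD116-14 inside the middle group. Across the 26 copies, log2(FPKM + 1) of 2 libraries of the same day correlated with r from 0.558 to 0.992 (median 0.844, 12 pairs). For libraries of different days r was 0.304 to 0.600 (median 0.433, 16 pairs). Copies are not independent replicates, and these values describe likeness only.

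With doxycycline the SNORD116 family did not move one way. In shEXOSC3 the depth-scaled fragment ratio of doxycycline over none was 0.913 (interval 0.709 to 1.17) on day 5 and 0.749 (0.687 to 0.816) on day 7. In shNS it was 0.808 (0.702 to 0.931) on day 5 and 1.36 (1.26 to 1.47) on day 7. The ratio was thus below 1 in 3 tables, with an interval that included 1 in shEXOSC3 on day 5, and above 1 in the control hairpin on day 7. Without SNORD116-13 the day 7 ratios were 0.881 (0.777 to 0.997) in shEXOSC3 and 1.61 (1.43 to 1.81) in shNS. Without SNORD116-14 the day 5 ratios were 0.745 (0.514 to 1.08) in shEXOSC3 and 0.759 (0.608 to 0.949) in shNS. Counting error is only part of the error between cultures, so these intervals do not show an effect of doxycycline or of the hairpin.

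**Figure D3:**
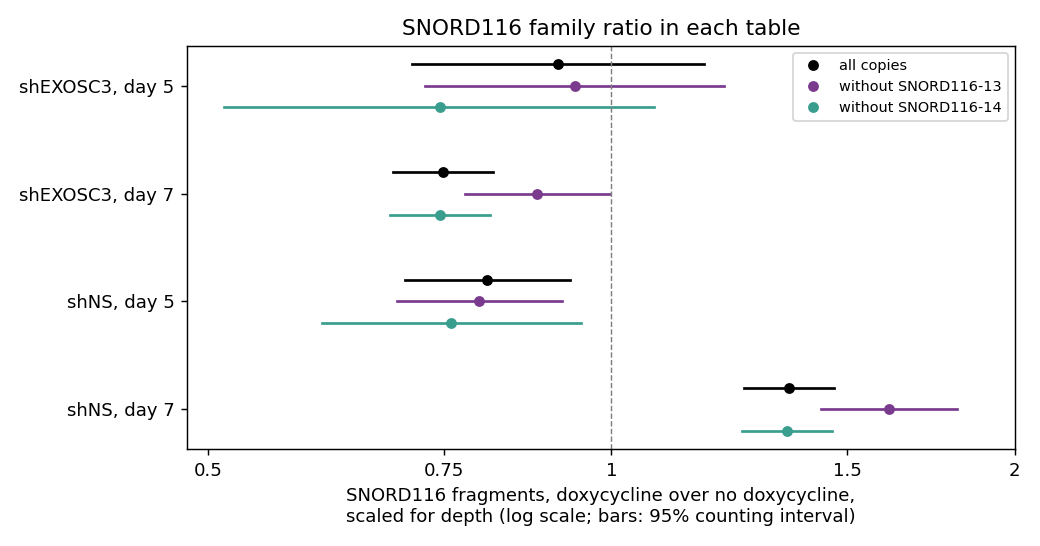
Depth-scaled ratio of SNORD116 fragments with doxycycline over without (log scale) in the 4 tables, for all copies, without SNORD116-13 and without SNORD116-14; bars are 95% counting intervals and the dashed line is 1. The ratio of all copies is 0.749 in shEXOSC3 and 1.36 in shNS on day 7, on opposite sides of 1.

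SNORD116-13 made 48.9 to 59.2% of the family sum on day 7, so the 2 are not independent. Its day 7 ratio was 0.647 (0.573 to 0.729) in shEXOSC3 and 1.18 (1.06 to 1.30) in shNS. Both were on the same side of 1 as, but lower than, the 0.881 and 1.61 of the other copies. SNORD116-26 had 0.765 (0.597 to 0.977) and 1.57 (1.25 to 1.99). SNORD116-25 went against the family in shEXOSC3, at 1.96 (1.19 to 3.30) on day 7, and was at 1.45 (0.752 to 2.91) in shNS. SNORD116-29 was also above 1 in both lines on day 7, at 1.77 (0.968 to 3.31) in shEXOSC3 and 2.80 (1.67 to 4.93) in shNS.

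A difference of at least 2-fold on the log2(FPKM + 1) scale was used as a size rule for single genes; 28 members had a mean of at least 1 FPKM. In shEXOSC3 on day 5, 13 of 28 members passed it, against 2.05% of all genes tested: 6 were higher (1.33% of all genes) and 7 lower (0.717%). On day 7, 8 of 28 passed it, against 2.92%: 3 were higher (1.88%) and 5 lower (1.04%). In shNS on day 5, 8 of 28 passed, against 1.32%: 2 were higher (0.717%) and 6 lower (0.602%). On day 7 in shNS, 8 of 28 passed, against 2.05%: 5 were higher (1.2%) and 3 lower (0.846%). Members passed more often than genes at large in all 4 tables, the control hairpin included. This excess was not particular to the locus: the 132 SNORD genes tested outside SNORD113 to SNORD116 had it too. Their 2-fold rises and falls numbered 15 and 7 in shEXOSC3 on day 5, then 44 and 20 on day 7. For shNS the rises were 14 and 37 on those days, against 9 and 15 falls. A smaller share of them than of members passed on day 5, and a larger share on day 7. Most SNORD116 copies past the rule had few fragments. In shEXOSC3, 11 of 12 on day 5 and 6 of 8 on day 7 had under 20 fragments in both libraries together. In shNS these were 8 of 8 on day 5 and 4 of 7 on day 7. With copies under 20 fragments left out, fewer members remained. In shEXOSC3, 2 of 7 passed on day 5 and 2 of 17 on day 7. In shNS, 0 of 8 passed on day 5 and 3 of 17 on day 7. The shares of all genes and the counts of other SNORD genes above carry no such fragment limit.

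**Figure D4:**
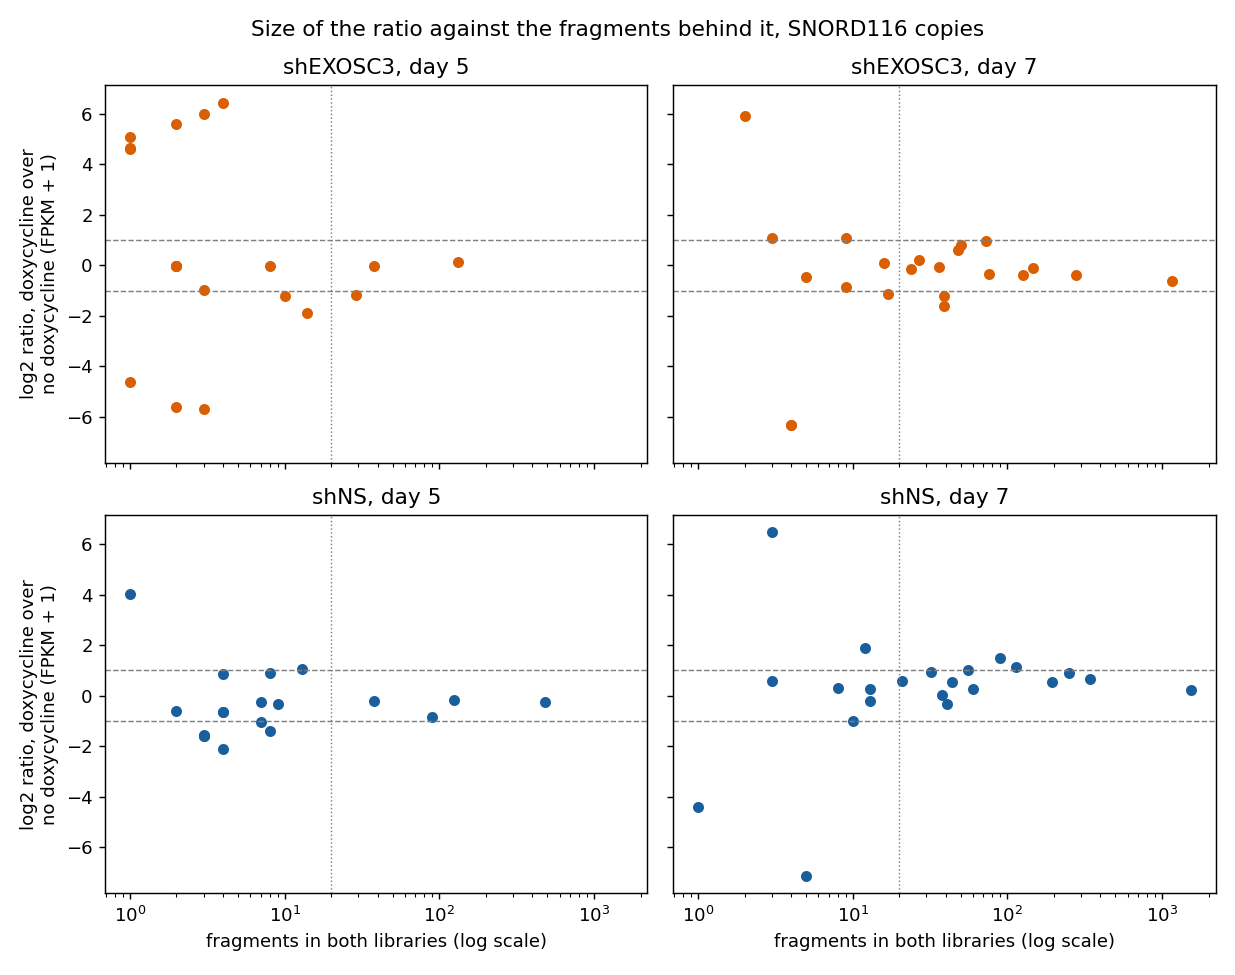
log2 ratio of doxycycline over no doxycycline (FPKM + 1) of each SNORD116 copy against its fragments in both libraries (log scale), for the 4 tables; dashed lines mark 2-fold and the dotted line 20 fragments. Ratios beyond 4 in size occur only left of the dotted line.

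Past the rule on both days in shEXOSC3, SNORD116-30 was higher (background 0.252%) and SNORD116-21 lower (0.13%). SNORD116-30 had 0 fragments without doxycycline in all 4 tables and 1, 2, 1 and 3 with it, so shNS had the same pattern. SNORD116-21 had 1 and 4 fragments untreated in shEXOSC3 on days 5 and 7, 0 with doxycycline, and 0 in all shNS libraries. By the shEXOSC3 ratio minus the shNS ratio, 2 members were lower on both days, SNORD116-21 and SNORD116-27, and 0 were higher. Of all genes 0.435% passed this rule in either direction, 0.274% higher and 0.16% lower. SNORD116-27 had differences of -1.01 on day 5 and -1.31 on day 7. Its own ratios were 0.447 (0.179 to 1.03) and 0.762 (0.524 to 1.10) in shEXOSC3, and 0.900 (0.621 to 1.31) and 1.89 (1.43 to 2.53) in shNS. The day 7 difference combined a log2 ratio of -0.39 in shEXOSC3 with 0.92 in shNS.

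SNRPN, which encodes a splicing protein of the Sm family, was the most abundant longer gene. It was at 783 and 633 FPKM in shEXOSC3 on day 5, without and with doxycycline, and 734 and 714 in shNS. By day 7 its levels were 429 and 398 in shEXOSC3, with 474 and 438 in shNS. All day 5 values were above all day 7 values, as for 37.1% of all genes tested. SNRPN was lower with doxycycline in all 4 tables, as were 12.4% of all genes tested. Its 4 log2 ratios were small, from -0.30 in shEXOSC3 on day 5 to -0.04 in shNS on day 5.

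SNURF, a short reading frame upstream of SNRPN on the same transcript, is listed by 1 RefSeq transcript, NM_022804. It was at 64.4 and 27.6 FPKM in shEXOSC3, with 92.8 and 66.9 in shNS on day 5. Its day 7 levels were 287 and 223 in shEXOSC3, with 279 and 286 in shNS, so SNURF was higher on day 7 while SNRPN was lower. SNURF in shEXOSC3 on day 5, at a log2 ratio of -1.20, was the single longer gene past 2-fold in any table. SNRPN and SNURF transcripts share the interval 25068794 to 25223729, and their FPKM depend on how shared reads were divided. Summed, they came to 847 and 661 FPKM in shEXOSC3, with 827 and 781 in shNS on day 5, and 716, 621, 753 and 724 on day 7. The sums overlapped between days, and the shEXOSC3 ratio on day 5 was -0.36. NM_022804 took 4.17 to 11.2% of the sum on day 5 and 35.9 to 40.1% on day 7, while the main SNRPN transcript, NM_003097, took 87.8 to 94.8% and then 58.6 to 62.2%.

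IPW, a noncoding RNA lying just past the SNORD116 cluster, was at 19.5 and 15.7 FPKM in shEXOSC3, with 19.9 and 16.2 in shNS on day 5. The day 7 levels were 33.1 and 29.9 in shEXOSC3, with 29.5 and 36.4 in shNS. Like the SNORD116 family, IPW was higher on day 7 in every library, as were 27.2% of all genes tested. In shNS on day 7 IPW was also higher with doxycycline (log2 ratio 0.29, against -0.14 in shEXOSC3). Its day difference was much smaller than that of SNORD116-13.

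NDN, which encodes the growth regulator necdin, was at 16.6 and 18.1 FPKM in shEXOSC3, with 16.4 and 19.3 in shNS on day 5. On day 7 NDN was at 9.34 FPKM untreated in shEXOSC3 and at 149.9% of that with doxycycline, with 11.4 and 9.98 FPKM in shNS. NDN was higher on day 5 without overlap, as were 37.1% of all genes tested, and its largest ratio was 0.54 in shEXOSC3 on day 7. MAGEL2, a partner of ubiquitin ligases, was under 1 FPKM in every library, from 0.284 to 0.966, and did not enter the ratios. NDN and MAGEL2 lie upstream of SNRPN, outside the host transcript, and both were higher on day 5.

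**Figure D5:**
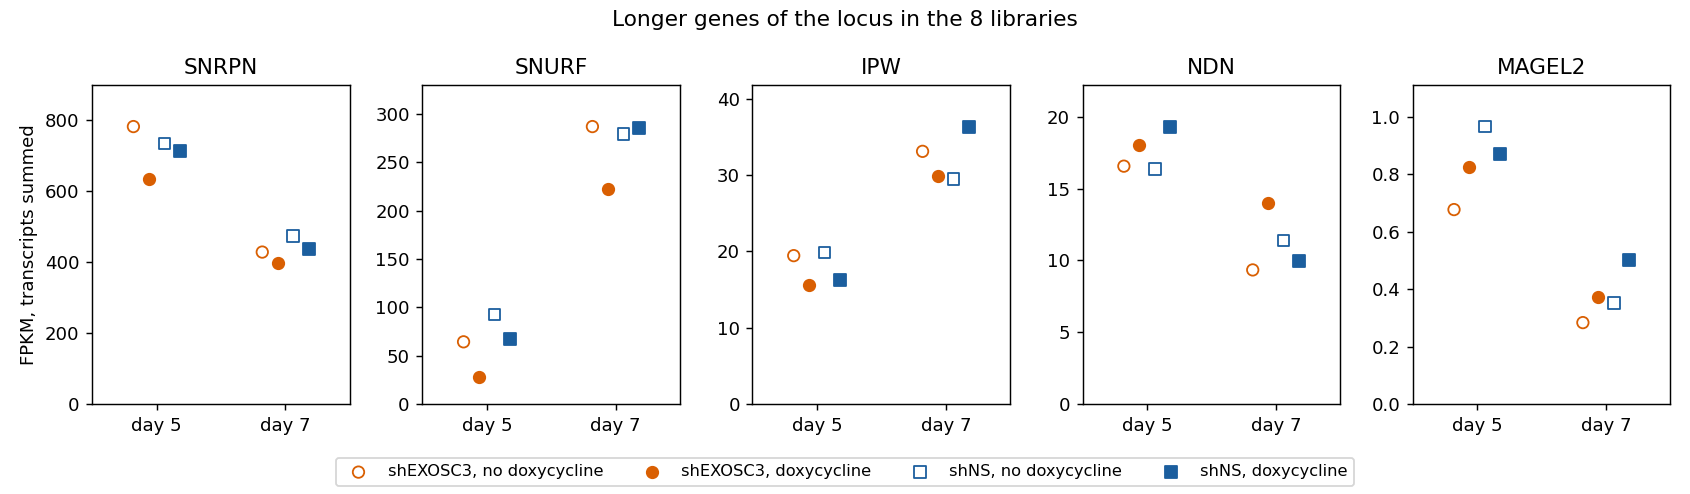
FPKM (linear axes from 0, 1 scale per gene) of SNRPN, SNURF, IPW, NDN and MAGEL2 in the 8 libraries by day; circles are shEXOSC3, squares shNS, open without and filled with doxycycline. SNRPN, NDN and MAGEL2 are higher on day 5 and SNURF and IPW on day 7, with no overlap. Of all genes tested, 37.1% are higher on day 5 and 27.2% on day 7 without overlap.

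Other genes of the same region gave 12 with a mean of at least 1 FPKM out of 25 in the tables, and 0 passed 2-fold in any table. PWAR5, a noncoding RNA between SNRPN and IPW, was at 134 and 109 FPKM in shEXOSC3, with 162 and 122 in shNS on day 5, and at 255, 168, 235 and 231 on day 7. PWAR5 and PWARSN were both lower with doxycycline in all 4 tables, as were 12.4% of all genes tested. PWARSN was at 74.2 and 61.1% of untreated in shEXOSC3 on days 5 and 7 and at 73.0 and 75.6% in shNS. SNORD107, another C/D snoRNA of the locus, was listed at 0 in all 4 day 5 libraries and at 8425, 5005, 7905 and 9570 FPKM on day 7, ordered as above. UBE3A, the Angelman syndrome gene on the far side of the clusters, was at 45.9 to 53.0 FPKM on day 5 and 79.8 to 90.0 on day 7. CYFIP1 and NIPA2 lie outside the imprinted interval, and their ratios in the 4 tables ran from -0.09 to 0.21.

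The C/D snoRNP proteins and assembly factors were all measured, and 0 of 12 passed 2-fold in any table. Their median log2 ratio was -0.20 and -0.25 in shEXOSC3 on days 5 and 7, against -0.03 and -0.11 in shNS; the median over all genes was between 0 and 0.01 in size. FBL, which encodes fibrillarin, the methyltransferase of these particles, went from 357 to 245 FPKM in shEXOSC3 on day 5 and from 98.6 to 62.0 on day 7. In shNS it went from 319 to 279 and from 101 to 91.1. FBL was thus higher on day 5, as were 37.1% of all genes tested, but the list was mixed by day. RUVBL2 and PIH1D1 were also higher on day 5 without overlap. NOP58, NOLC1, NUFIP1 and ZNHIT6 were higher on day 7 without overlap, as were 27.2% of all genes tested. Of the chromatin regulators of the imprinted locus 0 of 8 tested passed 2-fold in any table, and of the Sm proteins that partner SNRPN 0 of 7.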

How the data were processed

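Total RNA from 8 H1 stem cell samples was cleared of ribosomal RNA before library preparation with a ScriptSeq v2 kit, according to the labels. CASAVA 1.8, TopHat and Cufflinks were used with hg19 (GRCh37), per the submitters' processing notes; the counting strand and the treatment of multiply mapped reads were not found there. The deposited values are FPKM for 49235 RefSeq transcripts in 4 tables, each with an untreated and a doxycycline library, per the file headers. Fragments of the unspliced host over a snoRNA cannot be told apart from the snoRNA, and transcripts on either strand may be mixed.

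Accessions were matched to symbols (97.8%), FPKM summed per symbol, genes with a failed or too deep transcript left out, and genes kept at a mean of at least 1 FPKM. Ratios were log2((FPKM + 1)/(FPKM + 1)), a scale that understates low genes, with 2-fold as the size rule. Fragments were recovered from FPKM steps. Sequences came from GENCODE release 29. The members and lists were chosen with earlier results of these data known. Named copies were the 8 highest by mean of each family and those past 2-fold on both days; other copies were named after their values were seen. The calculation was tested on simulated data. Python 3.11.15, pandas 2.3.3, numpy 2.4.6 and scipy 1.17.1 were used. SNORD116 and SNORD115 copies outside the tables were not analysed here.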

Additional observations from a re-analysis of the deposited data

Results flagged for a closer look

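In 3 cases a SNORD116 copy passed 2-fold with doxycycline in opposite directions in the 2 hairpin lines on one day. The difference between the lines was not tested, since a group held 1 library.

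SNORD116-12 on day 5 had a log2 ratio of 4.61 in shEXOSC3, from 0 to 1 fragment, and -1.58 in shNS, from 2 to 1. SNORD116-13 on day 5 had -1.22 in shEXOSC3, from 7 to 3 fragments, and 1.05 in shNS, from 3 to 10. SNORD116-20 on day 7 had -1.14 in shEXOSC3, from 12 to 5 fragments, and 1.89 in shNS, from 2 to 10. All 6 counting intervals of these ratios included 1.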

How the results depend on the processing

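Each group held 1 library and the labels number no replicates, so no replicate block was fitted. The untreated and doxycycline libraries of a table were paired only by taking their ratio, and a fit treating the days or lines as replicates was not made. Of 344 values of named members under other pseudocounts, minimum levels, transcript choices, centring and a joint SNRPN and SNURF sum, 343 kept their side of 2-fold, and SNURF in shEXOSC3 on day 5 fell under it, at -0.36, when summed with SNRPN. The sign was kept in 340. SNURF in shNS on day 7 went from 0.03 to -0.06 in that sum, and median centring moved 3 values off 0 (SNORD116-21 in shNS on both days and SNORD116-29 in shNS on day 5) by less than 0.01. Many of the 344 values could not change. The 56 values under each changed minimum level do not depend on that filter. Transcript choice could alter SNRPN only, the single named gene with several transcripts. The counts kept are therefore a weak check. The count of members past 2-fold on both days by the shEXOSC3 minus shNS difference went from 2 to 1 with a pseudocount of 5 FPKM, with median centring, and with doxycycline libraries compared across tables. Keeping only snoRNA copies of at least 20 fragments was an alternative chosen after seeing the data. In shEXOSC3 the counts past 2-fold went from 13 of 28 to 2 of 7 on day 5, and from 8 of 28 to 2 of 17 on day 7. In shNS they went from 8 of 28 to 0 of 8, and from 8 of 28 to 3 of 17. Few fragments limit the precision of the day 5 snoRNA ratios, with 124 to 456 SNORD116 fragments per library. In shEXOSC3 a fragment of 94 bases stood for 23.6 and 23.5 FPKM on day 5, without and with doxycycline, against 19.8 and 21.5 on day 7. In shNS it stood for 17.6 and 11.05 FPKM on day 5, against 28.0 and 21.0 on day 7. The part of these steps in the low day 5 counts was not tested. A library at 0 gives a log2 ratio that depends on the pseudocount and is no bound.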
